A study of Mus musculus with 4 samples.

Results

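Cardiac monocytes were the subject: 217 of 21581 cells kept from dissociated hearts of 6-week-old mouse offspring. A kept cell had at least 1000 unique molecular identifiers (UMIs, each standing for 1 captured mRNA molecule) and at most 20% mitochondrial UMIs. A cell counted as a monocyte when Plac8, Ear2, Ly6c2, Treml4 and Napsa together held at least 5 UMIs with at least 2 of these genes detected, and Lyz2, Fcer1g and Tyrobp together held at least 3. It could hold no more than 5 UMIs of the macrophage complement genes C1qa, C1qb and C1qc, no more than 1 of Cd79a, Cd3e and Ncr1 (B, T and NK cells) and no more than 3 of the fibroblast gene Dcn. The rule found 80 monocytes in high_fibre 1, 79 in high_fibre 2, 43 in control_diet 1 and 15 in control_diet 2. Because these 15 genes chose the cells, their values are given as a description, and no test was made on them.

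Per the labels and the series text, the high_fibre dams ate a diet rich in resistant starch while pregnant and nursing, and the control_diet dams ate one low in it. Each group had 2 libraries, and all offspring were weaned onto 1 standard chow at 3 weeks of age. Blood was removed by cardiac puncture, and hearts were perfused with collagenase IV and dispase II. The sort took live, metabolically active, nucleated cells, so shares describe sorted cells and not the whole organ. Neither the number nor the sex of the animals behind a library is given in the labels. The p-values below therefore reflect how far these 4 libraries spread, and part of that spread may be technical.

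Monocytes are circulating phagocytes made in the bone marrow. In mice, classical monocytes carry Ly6C on their surface and enter inflamed tissue through the chemokine receptor CCR2, where some become macrophages. Non-classical monocytes arise largely from classical ones, depend on the nuclear receptor Nr4a1 and patrol the inner wall of blood vessels. The heart also holds resident macrophages, part of which were seeded before birth.

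The deposited libraries held between 27577599 and 69600492 UMIs, and the smallest was control_diet 2. Of the barcodes of control_diet 2, 24.8% were also found in high_fibre 1, 25.2% in high_fibre 2 and 15.6% in control_diet 1, whereas the other pairs of libraries shared 6.92% to 9.34% of the smaller library's barcodes. The shared barcodes were deep in control_diet 2, with a median of 17333 UMIs, and shallow in high_fibre 1 (656), high_fibre 2 (685) and control_diet 1 (630). Among the monocytes, 8 had a barcode seen in another library. The monocyte copy was the deepest in all 8, and no other copy held more than 1843 UMIs.

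Monocytes had a median of 7634 and 7991 UMIs per cell in high_fibre 1 and 2, and of 7948 and 8431 in control_diet 1 and 2. The rule genes were strong and unequal in them. Napsa, an aspartic protease, had a UMI in 98.6% of the 217 cells and Plac8, a small cysteine-rich protein of myeloid cells, in 85.3%. Treml4, a receptor of the TREM family, was detected in 58.5%, Ear2, an eosinophil-associated ribonuclease, in 60.4%, and Ly6c2, the classical monocyte surface marker, in 35%. Plac8 had a UMI in 1.79% of macrophages and in 2.35% of 7096 Dcn-rich cells, at median depths of 10501 and 13039.5 UMIs. Since Plac8 helped to choose the monocytes, this gap is in part set by the rule and is no check of it. At the edge of the rule, 9 cells had a marker sum of exactly 5 UMIs and 6 otherwise fitting cells had a sum of 4. Csf1r, the receptor for the monocyte growth factor M-CSF, was detected in 5 of those 9 cells and 2 of those 6. The other genes read there were mixed. Ifitm6 was in 6 of the 9 and 3 of the 6, Ccr2 in 2 and 2, Cx3cr1 in 2 and 1, and Ms4a4c in 1 and 1. The neutrophil marker S100a8 was in 2 and 3, and the macrophage markers Adgre1 in 0 and 1 and Mrc1 in 1 and 0. These cells are too few to judge the edge.

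Ifitm6, an interferon-induced transmembrane gene of monocytes, is outside the rule. It was picked as a marker with earlier results of these data known, so its values describe the cells and do not test the label. Its level was 584, 396, 583 and 461 counts per 1000000 UMIs (CPM) in the monocytes of high_fibre 1, high_fibre 2, control_diet 1 and control_diet 2, against 24.9, 24.7, 28.0 and 22.4 CPM in the macrophages of those libraries. It had a UMI in 77.9% of monocytes, 17.2% of macrophages and 0.352% of Dcn-rich cells. Further sets of 4 values give these 4 libraries in the same order.

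Markers of other cell classes were present in part of the cells. In 99 of 217 monocytes, the fixed markers of at least 1 other class, macrophages left out, reached 5 UMIs, and these were 34 of 80, 38 of 79, 20 of 43 and 7 of 15 cells of the libraries. Endothelial markers did so in 45 cells, fibroblast markers in 39, dendritic cell markers in 27, B cell markers in 19, neutrophil markers in 12, NK cell markers in 10 and platelet markers in none. Macrophage markers outside the rule reached 5 UMIs in 57 cells. The comparisons of gates, of monocytes with macrophages and of diets, and the shares, were also computed without the 99 cells. Macrophages holding such markers were not left out there, so that comparison was filtered on the monocyte side alone.

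Ly6c2 and Treml4 divided the monocytes into 2 sets that share no cell by definition. A cell was called Ly6c2-high with at least 3 UMIs of Ly6c2 and none of Treml4, and Treml4-positive with at least 1 UMI of Treml4 and fewer than 3 of Ly6c2. The first set held 44 cells (14, 18, 7 and 5 in the libraries) and the second 115 (42, 39, 26 and 8), while 12 cells met both marker conditions and 46 met neither. A Ly6c2-high cell had a median of 12 Ly6c2 UMIs and a Treml4-positive cell a median of 3 Treml4 UMIs. The Ly6c2-high cells were deeper, with a median of 11024.5 UMIs against 6776 in Treml4-positive cells. Ly6c2 shares 8.52% of the 90-base windows in the last 500 bases of its transcript with Ly6c1, so a small part of its counts is uncertain. Ly6c1 itself, an endothelial gene, had 155, 239, 0 and 0 CPM in Ly6c2-high cells, against 17.4, 121, 10.0 and 25.7 CPM in Treml4-positive cells.

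**Figure D1:**
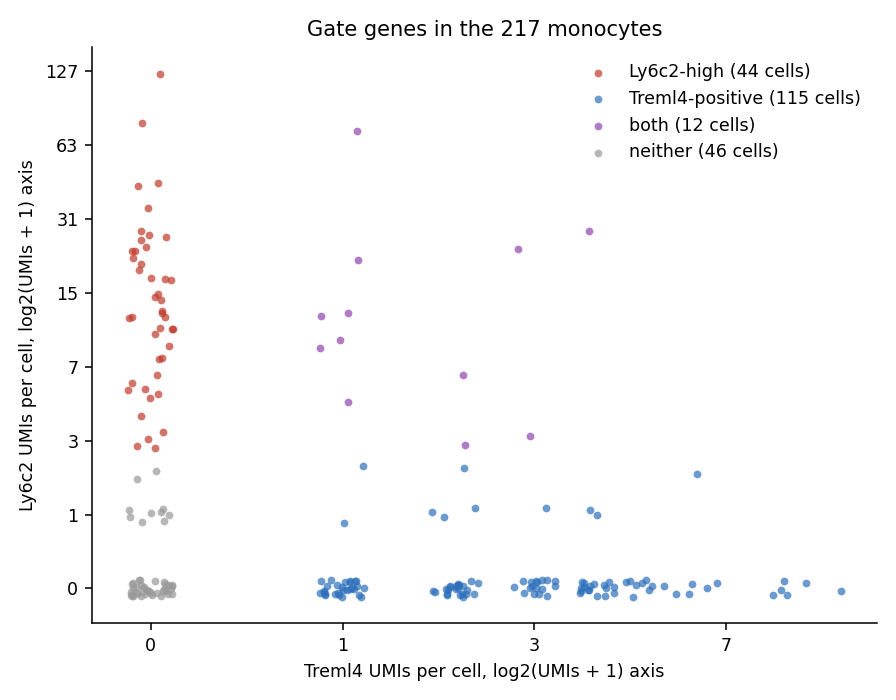
Ly6c2 UMIs (vertical) against Treml4 UMIs (horizontal) in each of the 217 monocytes, both as log2(UMIs + 1), with small offsets so that points do not hide each other and colours for the 4 sets. Most cells lie along one axis or at the origin, and 12 cells carry Treml4 together with at least 3 UMIs of Ly6c2.

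The other rule genes also differed between the sets, as a description. Lyz2, lysozyme, stood at 30168, 30674, 28904 and 34326 CPM in Ly6c2-high cells, against 11855, 10567, 16115 and 8934 CPM in Treml4-positive cells. Plac8 stood at 2863, 2224, 3352 and 3047 CPM in Ly6c2-high cells and at 941, 1323, 1723 and 1810.0 CPM in Treml4-positive cells. Ear2 went the other way, with 16.6, 27.0, 15.2 and 190.5 CPM in Ly6c2-high cells and 627, 604, 711 and 244 CPM in Treml4-positive cells. For all 3 genes the libraries of one set lay apart from those of the other.

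The sets were then compared over all other genes, on UMIs summed per library and set with the library as a block. Ly6c2-high cells held more of most genes listed for classical monocytes, among them genes of recruitment and matrix, and less of nearly every listed non-classical gene. edgeR's quasi-likelihood test called 292 of 2641 genes (11.1%) at an adjusted p under 0.05, with 120 (4.54%) higher in Ly6c2-high cells and 172 (6.51%) lower. The median log2 fold of all tested genes was -0.03, and for 14.3% of them the libraries of the sets did not overlap. The count was 124 without high_fibre 1, 123 without high_fibre 2 and 453 without control_diet 2. Without the 99 cells holding markers of another class it was 190, of which 122 were among the 292. Those markers were not even between the sets: cells holding any such class were 24 of 44 Ly6c2-high and 42 of 115 Treml4-positive cells. Fibroblast markers were in 13 of 44 and 8 of 115 cells, B cell markers in 11 and 3, dendritic cell markers in 8 and 5, and endothelial markers in 6 and 27. Macrophage markers outside the rule were in 24 of 44 Ly6c2-high and 21 of 115 Treml4-positive cells. Since both sets were chosen on genes read in the same cells, genes that travel with Ly6c2 or Treml4 differ by that choice. The lists of classical and non-classical genes are therefore no independent evidence of direction.

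The largest rise was that of F13a1, the A subunit of coagulation factor XIII. It had 481, 423, 305 and 190.5 CPM in Ly6c2-high cells, against 6.97, 6.23, 15 and 0 CPM in Treml4-positive cells (log2 fold 5.51 ± 0.39 SE, edgeR adjusted p = 1.44e-07). All 4 Ly6c2-high values lay far above all 4 Treml4-positive values, and 31 of 44 cells had a UMI against 6 of 115. Capg, an actin capping protein, had 536, 630.2, 533 and 410.2 CPM in Ly6c2-high cells and 17.4, 34.2, 80.1 and 0 CPM in Treml4-positive cells (log2 fold 3.98 ± 0.37, edgeR adjusted p = 6.16e-06). Fn1, fibronectin, had 862, 518, 488 and 586 CPM in Ly6c2-high cells and 6.97, 52.9, 95.1 and 0 CPM in Treml4-positive cells (log2 fold 3.90 ± 0.72, edgeR adjusted p = 0.0294). The sets did not overlap for either gene, but the call of Fn1 was lost without high_fibre 2 or without control_diet 2.

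Receptors followed. Ccr2, the receptor that draws monocytes out of the marrow and into tissue, had 813, 522, 655 and 908 CPM in Ly6c2-high cells, against 38.3, 112, 95.1 and 295 CPM in Treml4-positive cells (log2 fold 2.66 ± 0.39, edgeR adjusted p = 0.00261). It was detected in 39 of 44 Ly6c2-high cells and 25 of 115 Treml4-positive cells, and its log2 fold was 3.30 without the cells holding markers of another class. The libraries of the 2 sets did not overlap. Cd14, the lipopolysaccharide co-receptor, had 729.6, 329, 366 and 132 CPM in Ly6c2-high cells and 69.7, 62.3, 10.0 and 103 CPM in Treml4-positive cells (log2 fold 2.82 ± 0.51, edgeR adjusted p = 0.00985), and lost its call without high_fibre 2. Further genes among the largest rises, with log2 folds from 2.60 to 2.77, were Bst2, Ly6a, Plxnd1, Hopx, Wfdc17 and Tsc22d1.

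Treml4-positive cells in turn held genes that Ly6c2-high cells almost lacked. Cd300e, an activating receptor of the CD300 family, had no UMI in any of the 44 Ly6c2-high cells and 408, 317, 235 and 154 CPM in Treml4-positive cells. Set against a floor of 3 UMIs over the whole Ly6c2-high set, it was at least 56.2-fold lower in Ly6c2-high cells (edgeR adjusted p = 2.54e-06). Pglyrp1, a peptidoglycan recognition protein, had 16.6, 9.0, 30.5 and 14.7 CPM in Ly6c2-high cells, against 993, 607, 791 and 398 CPM in Treml4-positive cells (log2 fold -5.52 ± 0.34, edgeR adjusted p = 3.78e-08). Of the cells, 6 of 44 and 101 of 115 had a Pglyrp1 UMI. Eno3, an enolase best known from muscle, had 5.53, 18, 0 and 0 CPM in Ly6c2-high cells and 516, 379.7, 551 and 103 CPM in Treml4-positive cells (log2 fold -5.40 ± 0.44, edgeR adjusted p = 9.62e-07). For all 3 genes, each Treml4-positive value exceeded every Ly6c2-high value.

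Surface receptors and a survival gene made up most of the rest. Fcgr4, an activating IgG receptor, had 11.1, 9.0, 0 and 29.3 CPM in Ly6c2-high cells and 404, 252, 215 and 141 CPM in Treml4-positive cells (log2 fold -4.57 ± 0.44, edgeR adjusted p = 3.89e-06). Ace, angiotensin-converting enzyme, had 0, 72.0, 15.2 and 14.7 CPM in Ly6c2-high cells and 519, 551, 511 and 154 CPM in Treml4-positive cells (log2 fold -3.98 ± 0.52, edgeR adjusted p = 0.000973). The lowest Treml4-positive value of both genes came from control_diet 2, and still lay above every Ly6c2-high value. Bcl2a1a, an inhibitor of apoptosis, had 0, 31.5, 0 and 0 CPM in Ly6c2-high cells and 206, 168, 160.2 and 154 CPM in Treml4-positive cells (log2 fold -3.80 ± 0.57, edgeR adjusted p = 0.000734). It shares 39.7% of its windows with its near-copy Bcl2a1d, which was also lower in Ly6c2-high cells (log2 fold -2.82 ± 0.48, edgeR adjusted p = 0.00533), so the counts of the pair cannot be fully separated. Cd300ld, S1pr5 (a sphingosine-1-phosphate receptor), Adgre4, Cd82, L1cam and Pparg completed the 12 largest falls, with log2 folds from -3.41 to -3.88. L1cam overlaps Arhgap4 on the same strand.

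**Figure D2:**
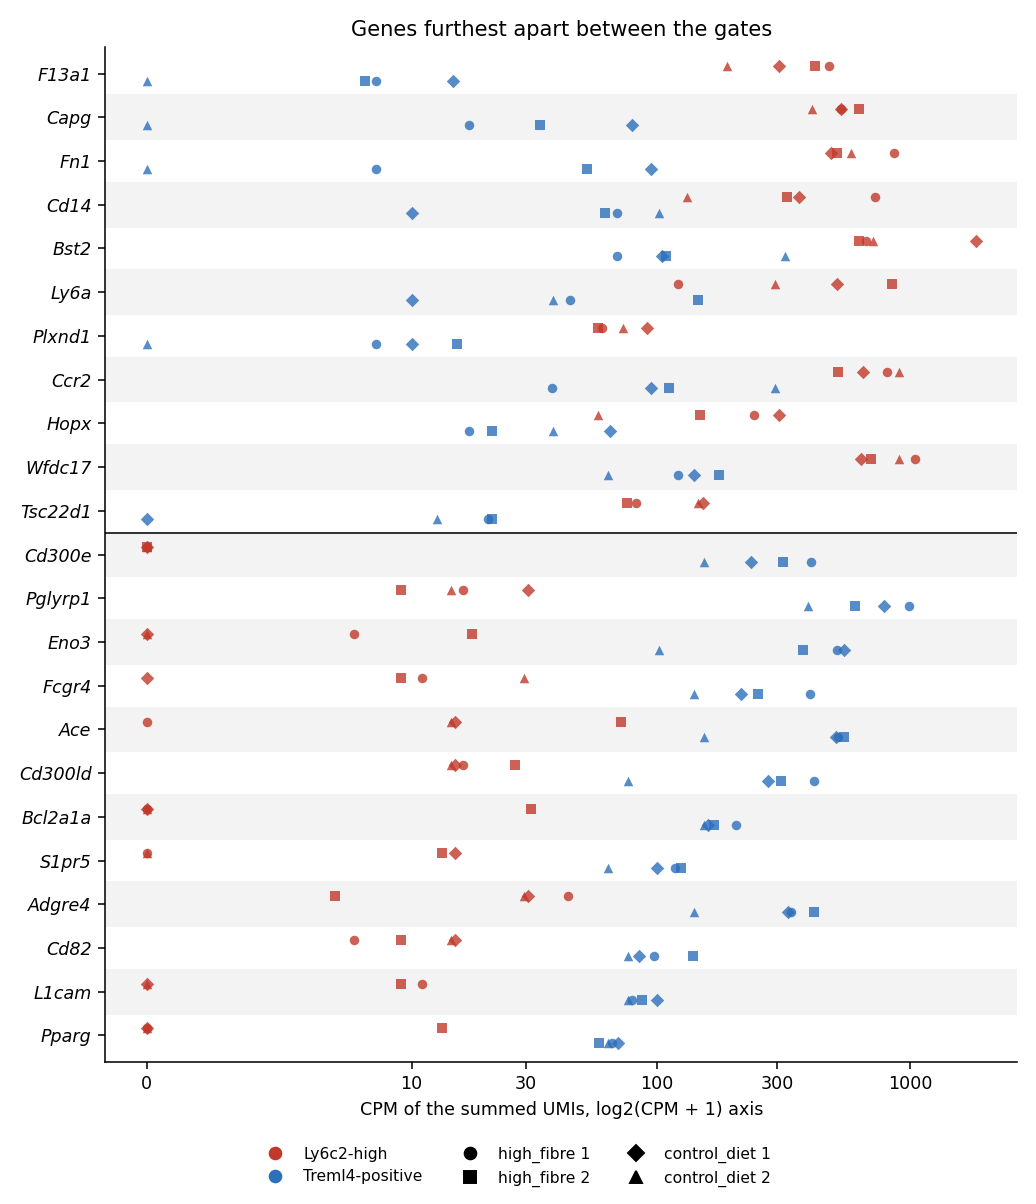
Genes with the largest differences, as CPM of UMIs summed per library on a log2(CPM + 1) axis, with Ly6c2-high cells in red above Treml4-positive cells in blue and 1 marker shape per library. F13a1 lies at 190.5 to 481 CPM in Ly6c2-high cells and at 0 to 15 CPM in Treml4-positive cells, and Cd300e is at 0 in every Ly6c2-high sum.

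The bases upstream of the changed genes were read from RefSeq on GRCm38.p6, 250 bases before the first listed start of each gene. Other starts of a gene were not read. The macrophage and monocyte factor PU.1 and the interferon regulatory factors (IRF) were looked for because they are known regulators of this lineage. Of 172 genes lower in Ly6c2-high cells 133 were in the table, and of 120 higher genes 91 were. The letters GAGGAAGT, a PU.1 motif, stood on either strand in 13 of 133 lower genes (9.77%) and 4 of 91 higher genes (4.40%), against 57 of 2100 tested genes (2.71%) and 660 of all 27025 promoters (2.44%). The letters GAAA and GAAA with any 2 bases between them, an IRF motif, stood in 3.76% of lower and 8.79% of higher genes, against 3.90% of tested genes and 3.04% of all. TTNNGCAA (C/EBP) stood in 7.52% of lower and 12.1% of higher genes against 8.48% of tested genes, and CCACACCC (KLF) in 6.77% and 3.30% against 3.67%. AAAGGTCA (NR4A) was in none of the lower genes, 1.10% of the higher and 0.714% of the tested ones. These are matches of letters and not sites of binding. Single sequences were at hand for 8 of the 12 largest rises and for all 12 largest falls. Fn1, Cd14 and Ly6a were not among them. Of the genes at hand, those with a PU.1 or IRF match are shown, with matches in capitals. Fcgr4 (chr1:171018676-171018925, + strand) has the PU.1 letters on the opposite strand, 24 to 17 bases before the start, and IRF letters at 73 to 64. Cd300ld (chr11:114989887-114990136, - strand) has PU.1 letters 143 to 136 bases before the start, and Bcl2a1a (chr9:88956670-88956919, + strand) 104 to 97. Bst2 (chr8:71537473-71537722, - strand) has a pair of overlapping IRF matches, at 130 to 121 and 124 to 115.
Fcgr4: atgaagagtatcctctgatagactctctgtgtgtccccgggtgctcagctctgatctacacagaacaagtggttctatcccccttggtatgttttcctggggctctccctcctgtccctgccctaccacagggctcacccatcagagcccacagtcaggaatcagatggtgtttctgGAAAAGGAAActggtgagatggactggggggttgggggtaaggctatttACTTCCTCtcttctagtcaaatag
Cd300ld: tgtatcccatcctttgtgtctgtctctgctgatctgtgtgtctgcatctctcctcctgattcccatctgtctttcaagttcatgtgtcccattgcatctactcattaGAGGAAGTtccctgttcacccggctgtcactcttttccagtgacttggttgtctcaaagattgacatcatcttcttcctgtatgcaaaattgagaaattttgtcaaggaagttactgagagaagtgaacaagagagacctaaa
Bcl2a1a: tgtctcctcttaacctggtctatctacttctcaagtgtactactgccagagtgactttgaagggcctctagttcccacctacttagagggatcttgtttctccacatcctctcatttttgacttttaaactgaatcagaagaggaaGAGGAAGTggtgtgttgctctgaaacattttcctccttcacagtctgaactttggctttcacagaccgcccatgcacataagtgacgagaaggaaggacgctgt
Bst2: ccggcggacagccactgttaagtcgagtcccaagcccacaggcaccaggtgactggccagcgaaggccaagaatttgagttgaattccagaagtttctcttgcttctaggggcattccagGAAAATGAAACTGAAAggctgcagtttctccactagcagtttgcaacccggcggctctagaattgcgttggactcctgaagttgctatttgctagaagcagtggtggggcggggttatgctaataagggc

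By function, the largest shifts sat in the 2 monocyte lists. Of 12 tested classical genes 9 were higher in Ly6c2-high cells and none lower (median log2 fold 2.09). Besides the genes above these included Ms4a4c (2.37), the calcium-binding S100a4 (1.52) and S100a6 (1.82), and the haemoglobin scavenger Hp (1.62). Chil3, another classical gene, had 1117, 738, 305 and 381 CPM in Ly6c2-high cells against 38.3, 106, 180.3 and 12.8 CPM in Treml4-positive cells and was not called (edgeR adjusted p = 0.0730). Of 15 tested non-classical genes 14 were lower and none higher (median -2.71). They included the integrin subunit Itgal (-2.71), the sialomucin Spn (-3.22) and the fractalkine receptor Cx3cr1 (-1.04), whose call was lost without high_fibre 1 and without the cells holding markers of another class. Cd36 was the 1 not called. Cx3cr1 overlaps Gorasp1, Csrnp1 and Xirp1 on the same strand.

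Transcription factors split. Of 19 tested, 3 were higher in Ly6c2-high cells (Cebpa 1.65, whose call was lost without control_diet 1, Cebpd 0.94 and Tcf4 1.77) and 4 lower (median of the list -0.09). Cebpd lost its call in 9 of 20 alternatives, among them those without high_fibre 1, high_fibre 2 or control_diet 2. Nr4a1, on which mouse non-classical monocytes depend, had 298, 306, 305 and 147 CPM in Ly6c2-high cells, against 979, 709.7, 992 and 257 CPM in Treml4-positive cells (log2 fold -1.44 ± 0.22, edgeR adjusted p = 0.000380). It was lower within every library, although the Treml4-positive value of control_diet 2 lay below 3 Ly6c2-high values. Pou2f2, the octamer factor Oct-2, fell by 1.77 and the Krüppel-like factors Klf4 and Klf2 by 0.82 and 0.72 on the log2 scale. The calls of Klf4 and Klf2 were lost without the cells holding markers of another class and without high_fibre 1 or high_fibre 2, and that of Klf4 also without control_diet 1. Tcf4 is also a gene of plasmacytoid dendritic cells, and their marker Siglech had a UMI in 5 of 44 Ly6c2-high cells and in none of 115 Treml4-positive cells. Without the cells holding markers of another class, Bst2 kept a log2 fold of 2.29, and Tcf4 had too few UMIs left, so their part in its value was not tested.

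Among growth factor receptors and survival genes 4 of 13 were lower in Ly6c2-high cells and none higher (median -0.31). Csf1r had 287, 279, 198 and 322 CPM in Ly6c2-high cells, against 617, 588, 706 and 436 CPM in Treml4-positive cells (log2 fold -1.13 ± 0.23, edgeR adjusted p = 0.00374). The sets did not overlap. Adhesion molecules had 8 of 16 lower and 1 higher (median -0.99), with the beta-2 integrin chain Itgb2 at 182, 297, 289 and 234 CPM in Ly6c2-high cells and 624, 632, 586 and 539 CPM in Treml4-positive cells. Of 5 tested chemoattractant receptors Ccr2 was higher and 3 were lower, among them Cxcr4, the receptor for CXCL12 (-1.62). Chemokines and cytokines had 4 of 7 higher and none lower (median 1.27), namely Ccl3 (1.27), Ccl4 (2.22), Ccl6 (1.05) and Ccl9 (2.20). The call of Ccl3 was lost without high_fibre 1 or high_fibre 2, that of Ccl4 without control_diet 1 or control_diet 2, and that of Ccl6 without high_fibre 2. Ccl4 was uneven between libraries, with 44.2, 707, 701 and 29.3 CPM in Ly6c2-high cells, against 59.2, 77.8, 120.2 and 0 CPM in Treml4-positive cells.

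Interferon-stimulated genes had 4 of 14 higher in Ly6c2-high cells and none lower (median 0.79): Isg15 (1.95), Ifi27l2a (1.26), Bst2 and Ly6a. Ifi27l2a had 2178, 1823, 2697 and 3736 CPM in Ly6c2-high cells, against 759, 825, 1592 and 1104 CPM in Treml4-positive cells (log2 fold 1.26 ± 0.20, edgeR adjusted p = 0.000437). Bst2, the tethering factor tetherin, had a UMI in 42 of 44 and 47 of 115 cells. For Ly6a, 40.5% of the UMIs of the Ly6c2-high set came from 1 cell, and the call was lost without high_fibre 2. Lysosomal proteases had 6 of 17 higher, such as Ctsh (1.37) and Ctsl (2.00), and 1 lower (median 0.42). The lower one was the protease inhibitor Cst3, cystatin C, with 2205, 3039, 2377 and 3077 CPM in Ly6c2-high cells, against 7225, 10418, 8708 and 14647 CPM in Treml4-positive cells (log2 fold -1.93 ± 0.18, edgeR adjusted p = 3.74e-06). The Cst3 difference was -0.85 without the cells holding markers of another class.

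Heat shock chaperones had 4 of 16 lower in Ly6c2-high cells (Hspa1a -0.93, Hspa1b -1.05, Dnaja1 -0.91 and Stip1 -1.39), none higher, and a median of -0.70. Hspa1a lost its call without high_fibre 1, Hspa1b without high_fibre 1 or high_fibre 2, and Dnaja1 without high_fibre 1, high_fibre 2 or control_diet 1. MHC class II genes had none of 8 called, and the Ly6c2-high cells of high_fibre 1 stood apart there, with H2-Ab1 at 71.9, 1445, 1828 and 2095 CPM in Ly6c2-high cells and 850.0, 1762, 1507 and 4621 CPM in Treml4-positive cells. None of 10 MHC class I genes, 4 genes on the short-chain fatty acid list or 7 of cholesterol synthesis was called either. Over all tested genes, 4.54% were called higher and 6.51% lower. In the remaining lists, the called members were 4 of 15 immediate early genes (1 higher, 3 lower), 4 of 7 NF-kappaB feedback genes (1 higher, 3 lower), 5 of 15 Fc receptors and adaptors (1 higher, 4 lower) and 5 of 7 matrix and coagulation genes (4 higher, 1 lower). They were 3 of 8 granule genes (2 higher, 1 lower), 3 of 13 genes of lipid handling (2 higher, 1 lower), 1 of 13 ER stress chaperones (higher), 1 of 11 glycolysis genes (Eno3), 1 of 4 C-type lectins (lower) and 1 of 5 glucocorticoid response genes (higher). Of 5 tested resident macrophage genes 1 was higher, Selenop, a selenium carrier, with 453, 158, 168 and 615 CPM in Ly6c2-high cells, against 111, 118, 90.1 and 89.9 CPM in Treml4-positive cells (log2 fold 1.45 ± 0.32, edgeR adjusted p = 0.00875). Its call was lost without high_fibre 1 and without the cells holding markers of another class. The B cell marker Ighm was also higher (log2 fold 0.88 ± 0.27, edgeR adjusted p = 0.0412), and lost its call without high_fibre 1, high_fibre 2 or control_diet 1.

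The 46 cells that reached neither marker threshold were a mixed set. They carried the antigen presentation gene Cd74 at 15375 CPM over all libraries and H2-Ab1 at 5588 CPM, against 4557 and 1112 CPM in Ly6c2-high cells and 5976 and 1660 CPM in Treml4-positive cells. Cd209a, a C-type lectin of dendritic cells, was found in 9 of the 46, in 8 of 44 Ly6c2-high cells and in none of 115 Treml4-positive cells. Klrd1, an NK cell receptor, was found in 12 of the 46, and 29 of the 46 held markers of another class. In that set the label monocyte is not borne out for every cell, since 13 held dendritic cell markers and 9 NK cell markers at 5 UMIs or more. Markers of another class were also in 24 of 44 Ly6c2-high and 42 of 115 Treml4-positive cells, so the label is not settled for every cell there either.

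Against cardiac macrophages the monocytes differed in far more genes. Macrophages were taken as the 3245 kept cells with at least 15 UMIs of C1qa, C1qb and C1qc (993, 1212, 767 and 273 in the libraries), and the test again had the library as a block. edgeR called 3168 of 9737 genes (32.5%), with 1397 (14.3%) higher in monocytes and 1771 (18.2%) lower, at a median log2 fold of -0.11 over all genes. For 35.3% of them the libraries of the 2 cell kinds did not overlap. The median was -0.03 when counts were scaled by library size alone. Monocytes held 13 of 15 tested classical genes and 14 of 16 non-classical genes at higher levels, and all 18 tested resident macrophage genes at lower levels. Both monocyte lists overlap in kind with the genes that chose the cells. Macrophages were chosen for high C1q and monocytes for low C1q, so resident macrophage genes that travel with C1q differ by that choice.

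The genes with the largest rise in monocytes mixed both kinds of monocyte. Ly6i, a member of the Ly6 family, had 103, 59.9, 149 and 202 CPM in monocytes, against 0.267, 0.549, 0 and 0.722 CPM in macrophages (log2 fold 8.02 ± 0.39, edgeR adjusted p = 1.79e-09). Cd300e had 201, 148, 117 and 164 CPM in monocytes and 0.802, 0.892, 0.121 and 0 CPM in macrophages (log2 fold 7.96 ± 0.29, edgeR adjusted p = 3.31e-12). Ace had 291, 284, 307 and 145 CPM in monocytes and 2.67, 5.42, 1.33 and 2.17 CPM in macrophages (log2 fold 6.39 ± 0.31, edgeR adjusted p = 1.65e-06). Each monocyte value was higher than every macrophage value. The lymphocyte factor Bcl11a (6.24), the orphan receptor Gpr141 (6.07), Pglyrp1 (7.14), Trem3 (7.12), S1pr5 (6.97), Chil3 (6.89), Cd177 (6.69) and Hp (6.58) were also among the largest rises. Ccr2 was 286, 352, 345 and 619 CPM in monocytes, against 49.6, 77.9, 53.4 and 62.6 CPM in macrophages (log2 fold 2.56 ± 0.15, edgeR adjusted p = 2.73e-09).

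Resident macrophage genes were at lower levels in monocytes, and some had no UMI there. Lyve1, a hyaluronan receptor of vessel-associated macrophages, had no UMI in the 217 monocytes and 426, 550.5, 490.1 and 549 CPM in macrophages, at least 338-fold lower in monocytes against a floor of 3 UMIs over the set. On the same floor Fcna was at least 70.1-fold lower, Chp2 34.1-fold, Vsig4 32.0-fold, Mmp13 30.4-fold, Reps2 27.4-fold, Scamp5 16.5-fold and Tnfrsf17 14.4-fold. These 8 came first among the falls because a fitted fold against 0 depends on the prior count, and all their bounds but that of Lyve1 lie below the fold of Pf4. Pf4, a chemokine, had 17.2, 13.3, 4.79 and 0 CPM in monocytes, against 3025, 3493, 3154 and 3418 CPM in macrophages (log2 fold -8.22 ± 0.29, edgeR adjusted p = 3.27e-06). Slco2b1 (-7.76), the folate receptor Folr2 (-7.55) and the carbonyl reductase Cbr2 (-7.49) followed. The 18 resident macrophage genes had a median of -5.35, or -4.97 with genes at 0 UMIs set to their bound.

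Some genes listed for monocytes were at higher levels in macrophages. F13a1 had 136, 137, 88.7 and 94.7 CPM in monocytes, against 1136, 1471, 1310.1 and 1554 CPM in macrophages (log2 fold -3.59 ± 0.14, edgeR adjusted p = 2.08e-10). Its level in Ly6c2-high cells, 190.5 to 481 CPM, was also below that of every macrophage library. Cx3cr1 had 171, 249, 268 and 158 CPM in monocytes and 226, 286, 342 and 350.1 CPM in macrophages (log2 fold -0.54 ± 0.13, edgeR adjusted p = 0.00420), with a log2 fold of 0.0091 without the cells holding markers of another class. Csf1r had 409, 382, 475 and 404 CPM in monocytes and 874, 988, 1005 and 1052 CPM in macrophages (log2 fold -1.31 ± 0.09, edgeR adjusted p = 2.20e-09). Of these 3 genes, Cx3cr1 was the 1 whose libraries overlapped between the cell kinds.

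Among 22 transcription factors 11 were higher and 6 lower in monocytes (median 0.27). Nr4a1 had 692, 501, 686 and 221 CPM in monocytes, against 163, 41.6, 109 and 54.9 CPM in macrophages (log2 fold 2.55 ± 0.34, edgeR adjusted p = 0.00718). It was the 1 immediate early gene of 18 that was higher, whereas 15 were lower (median -0.76), such as Egr1 (-3.10). Maf, a factor of mature macrophages, had 44.5, 45.3, 55.1 and 107 CPM in monocytes and 776, 951, 957 and 1142 CPM in macrophages (log2 fold -4.15 ± 0.14, edgeR adjusted p = 1.44e-13). Cebpb rose (1.20).

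Adhesion molecules had 14 of 18 higher in monocytes and 1 lower (median 1.51), led by Itgal, the alpha chain of LFA-1, with 463, 445, 515 and 271 CPM in monocytes against 7.22, 9.53, 5.07 and 6.74 CPM in macrophages (log2 fold 5.83 ± 0.19, edgeR adjusted p = 9.86e-12). Granule and antimicrobial genes had 10 of 12 higher and 1 lower, and MHC class I genes 9 of 14 higher and 1 lower, with H2-D1 at a log2 fold of 0.48. Chemokines and cytokines ran the other way, with 10 of 21 lower and 1 higher (median -2.13). Ccl12 (-6.80), Ccl24 (-6.48) and Ccl8 (-5.40) were among those lower. Lysosomal proteases had 12 of 17 lower and 2 higher (median -0.86), including Ctsc (-2.40), and cell cycle genes 9 of 19 lower and 1 higher (median -1.29). Apoe, the main apolipoprotein of macrophages, had 4323, 2647, 2232 and 3687 CPM in monocytes and 21934, 23612, 24526 and 27545 CPM in macrophages (log2 fold -3.05 ± 0.25, edgeR adjusted p = 0.00353).

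Genes of cholesterol synthesis and uptake had 13 of 19 higher in monocytes and none lower (median 1.20). Fdps, an enzyme of isoprenoid and sterol synthesis, had 67.4, 167, 119.9 and 101 CPM in monocytes, against 20, 21.2, 20.4 and 20 CPM in macrophages (log2 fold 2.37 ± 0.20, edgeR adjusted p = 4.14e-08). Each monocyte value was above every macrophage value. Of 10 tested genes on a broad list for sensing of short-chain fatty acids and fibre metabolites 4 were higher and 2 lower (median 0.50). The list also holds enzymes such as a phosphatase, so its count does not measure such sensing alone. The higher ones were the monocarboxylate carrier Slc16a3 (3.14), the acid-sensing receptor Gpr132 (2.11), the butyrate and niacin receptor Hcar2 (1.76) and the phosphatase Ptpn6 (0.71), and the lower ones were Gpr65 (-1.49) and the deacetylase Hdac9 (-1.83). Hcar2 was low throughout, at 27.3, 13.3, 9.59 and 6.31 CPM in monocytes against 6.06, 4.05, 2.42 and 4.33 CPM in macrophages.

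Markers of further cell classes moved with this comparison. Of the 6 tested dendritic cell markers 5 were higher in monocytes (median 4.31), and of the 5 tested neutrophil markers 4 (median 3.35). S100a8, a neutrophil marker, had 732, 172, 2.40 and 63.1 CPM in monocytes and 51.5, 5.49, 0.604 and 0.963 CPM in macrophages, and 95.3% of its monocyte UMIs in high_fibre 2 came from 1 cell. The interferon regulatory factor Irf8 had 176, 397, 561 and 638 CPM in monocytes and 143, 163, 187 and 152 CPM in macrophages. Without the 99 cells holding markers of another class, the log2 folds of S100a8 and Irf8 were -2.10 and -0.013.

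The other lists gave mixed counts in monocytes, to be read beside 14.3% higher and 18.2% lower over all tested genes. Fc receptors and adaptors had 10 of 20 higher and 6 lower, interferon-stimulated genes 6 of 30 higher and 6 lower, C-type lectins 5 of 13 higher and 4 lower, and MHC class II genes 4 of 14 higher and 1 lower. Growth factor receptors and survival genes had 7 of 16 higher and 3 lower, chemoattractant receptors 4 of 11 higher and 6 lower, and glycolysis genes 9 of 16 higher and 2 lower. Matrix and coagulation genes had 6 of 16 higher and 5 lower, genes of lipid handling 6 of 18 higher and 6 lower, and NF-kappaB feedback genes 4 of 16 higher and 4 lower. Heat shock chaperones had 1 of 18 higher and 5 lower, ER stress chaperones 1 of 16 higher and 7 lower, and glucocorticoid response genes 2 of 14 higher and 8 lower.

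**Figure D3:**
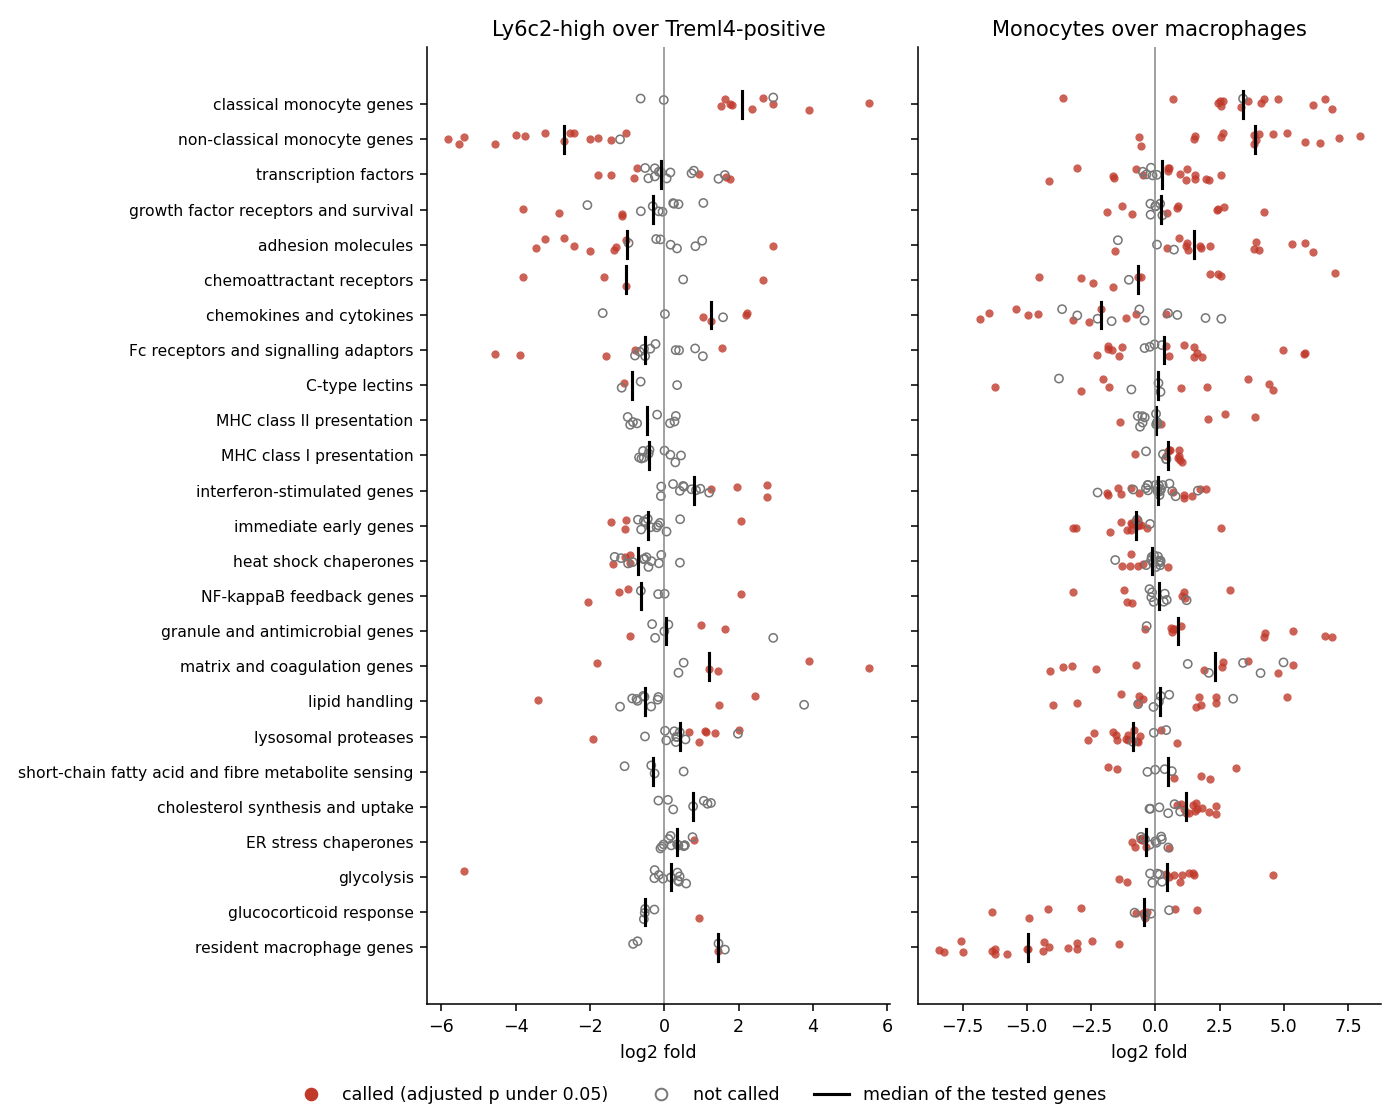
Log2 folds of the tested genes of each list, Ly6c2-high over Treml4-positive monocytes on the left and monocytes over macrophages on the right, with filled points for genes called by edgeR, open points for the others and a bar at each list's median. Classical genes sit at a median of 2.09 and 3.41 and non-classical genes at -2.71 and 3.88 in the left and right panels, and resident macrophage genes lie below 0 throughout the right panel, where genes with no UMI are drawn at their bound.

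The diets were compared first by the share of monocytes. Monocytes made up 1.34% of kept cells in high_fibre 1 (80 of 5980, exact 95% binomial interval 1.06% to 1.66%) and 1.07% in high_fibre 2 (79 of 7380, 0.848% to 1.33%). They made up 0.759% in control_diet 1 (43 of 5663, 0.550% to 1.02%) and 0.586% in control_diet 2 (15 of 2558, 0.329% to 0.965%). Both high_fibre shares lay above both control_diet shares (log2 ratio 0.76), and edgeR's test on cell numbers gave an adjusted p = 0.0360 over the 3 sets of monocytes, macrophages and all other cells. Permuting the diet over the libraries, exact and two-sided, gave p = 0.333, the smallest this design allows. Macrophages moved too (log2 ratio 0.42, edgeR adjusted p = 0.0360). They were 16.6% and 16.4% of kept cells in the high_fibre libraries and 13.5% and 10.7% in the control_diet libraries. Their call was lost without high_fibre 1 or high_fibre 2, and without barcodes found in several libraries (log2 ratio 0.57, edgeR adjusted p = 0.197). Leaving out those barcodes took the macrophages of control_diet 2 from 273 to 147. The macrophage call was also lost without scored doublets, without cells holding markers of another class, with at most 2 C1q UMIs and with a marker sum of at least 8. Of monocytes and macrophages together, monocytes were 7.46% and 6.12% in the high_fibre libraries and 5.31% and 5.21% in the control_diet libraries (log2 ratio 0.35, edgeR adjusted p = 0.218).

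The call on the monocyte share depended on the settings, while its direction did not change in those tried. It was lost without high_fibre 1 (log2 ratio 0.61, edgeR adjusted p = 0.202), without high_fibre 2 (0.93, edgeR adjusted p = 0.145) and without control_diet 2 (0.65, edgeR adjusted p = 0.0706), and held without control_diet 1 (1.02, edgeR adjusted p = 0.0404). It was also lost without barcodes found in several libraries (0.78, edgeR adjusted p = 0.0726) and without cells holding markers of another class (0.79, edgeR adjusted p = 0.0783).

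The shares of the 2 sets overlapped between the diets. Ly6c2-high cells were 25.0% (14 of 56) and 31.6% (18 of 57) of the gated monocytes in the high_fibre libraries, and 21.2% (7 of 33) and 38.5% (5 of 13) in the control_diet libraries. The control_diet values lay on either side of the high_fibre values (difference of means -1.55 percentage points, exact two-sided permutation p = 1). That difference changed sign with the library left out, from -10.2 without control_diet 1 to 7.08 without control_diet 2, and was -8.59 with stricter gates. Cells that reached neither marker threshold were 23.8% and 26.6% of monocytes in the high_fibre libraries and 11.6% and 6.67% in the control_diet libraries, the last being 1 of 15 cells.

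**Figure D4:**
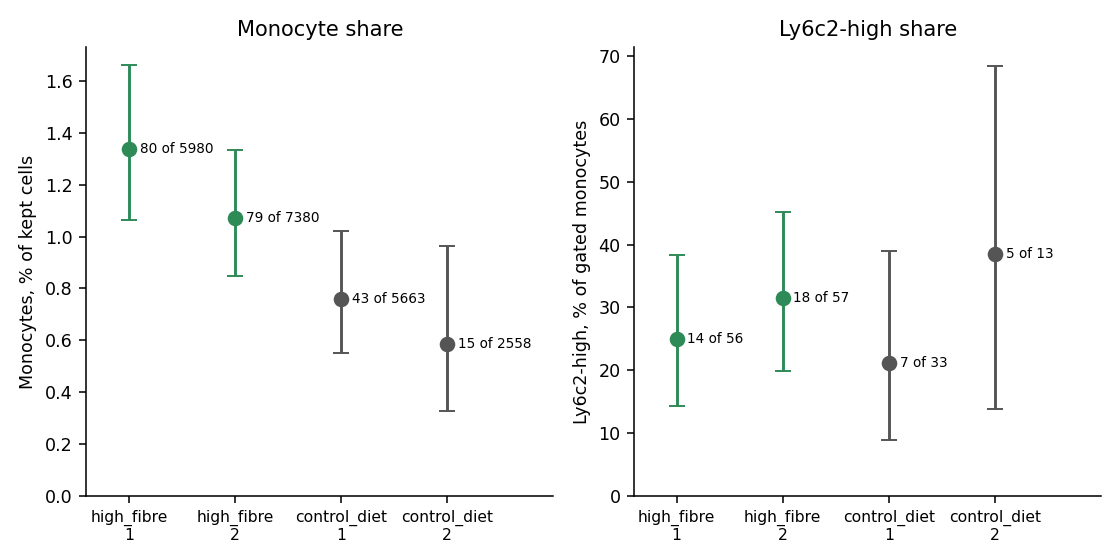
Monocytes as a percentage of kept cells (left) and Ly6c2-high cells as a percentage of gated monocytes (right) in each library, with exact 95% binomial intervals that cover counting error only. Monocytes are at 1.34% and 1.07% in the high_fibre libraries and at 0.759% and 0.586% in the control_diet libraries, whereas the Ly6c2-high shares overlap.

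Within monocytes no gene was called between the diets. edgeR's quasi-likelihood test on the summed UMIs of all monocytes called 0 of 5925 genes (0%), with a smallest adjusted p of 0.587, and 165 genes had an unadjusted p under 0.05. DESeq2 called 1 gene and limma-voom none. The groups did not overlap for 1861 of the 5925 genes (31.4%). The sums behind the test came to 696986 and 750627 UMIs for high_fibre and to 417134 and 158410 UMIs for control_diet. Counts of called genes were 13 without high_fibre 1, 26 without high_fibre 2, 89 without control_diet 1 and 17 without control_diet 2.

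The genes nearest to a call are given as values. Cxcl2, a neutrophil-attracting chemokine, had 192 and 266 CPM in the high_fibre libraries and 33.6 and 69.4 CPM in the control_diet libraries (log2 fold 2.30 ± 0.38, edgeR adjusted p = 0.587), and 39.5% of its UMIs in high_fibre 2 came from 1 cell. Cd63, a tetraspanin, had 93.3 and 129 CPM in the high_fibre libraries and 28.8 and 18.9 CPM in the control_diet libraries. Most of the Cd63 UMIs of each high_fibre library came from 1 cell. Slpi, a protease inhibitor, had 181 and 111 CPM in the high_fibre libraries against 33.6 and 44.2 CPM in the control_diet libraries. Klrd1 had 83.2 and 123 CPM in the high_fibre libraries and 31.2 and 31.6 CPM in the control_diet libraries. The groups did not overlap for these 4 genes, a condition of their choice.

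Spp1 and Gpnmb, genes of lipid-laden macrophages, came from very few cells. Spp1, osteopontin, had 245 and 862 UMIs in the high_fibre libraries, 98.8% and 70.9% of them in a single cell each, and 0 and 1 UMIs in the control_diet libraries. Gpnmb had 39 UMIs in 1 cell and 28 UMIs in 2 cells of the high_fibre libraries and none in the control_diet libraries. S100a8 had 732 and 172 CPM in the high_fibre libraries and 2.40 and 63.1 CPM in the control_diet libraries, and 36.9% and 95.3% of the high_fibre UMIs were in 1 cell each. The summed neutrophil markers were at 1638 and 478 CPM in the high_fibre libraries and at 62.3 and 322 CPM in the control_diet libraries. Without the 99 cells holding markers of another class, edgeR again called 0 genes between the diets.

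Of the genes picked on the other side, Ifi27l2a and Bst2 are interferon-stimulated. Of the 24 tested genes of that list none was called, 16 were below 0 and 8 above (median -0.20). The groups did not overlap for 6 of the 24, against 31.4% of all tested genes. Ifi27l2a had 1337 and 1060.5 CPM in the high_fibre libraries and 1963 and 2203 CPM in the control_diet libraries (log2 fold -0.81 ± 0.19, edgeR adjusted p = 0.902). Bst2 had 263 and 326 CPM in the high_fibre libraries and 527 and 486 CPM in the control_diet libraries (log2 fold -0.80 ± 0.22, edgeR adjusted p = 1). Neither passed the test, and that their groups did not overlap is a condition of their choice. Emcn, an endothelial sialomucin, had 23 and 25.3 CPM in the high_fibre libraries and 57.5 and 164 CPM in the control_diet libraries, and all 26 of its UMIs in control_diet 2 were in 1 cell. Stx6, Serpinh1 and Plpp3 were the other 3 genes picked on that side, with log2 folds from -1.66 to -1.88 and no call.

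Among the lists, 17 of 18 heat shock chaperones had a log2 fold above 0, with a median of 0.53 against 0.00 over all 5925 genes (2965 above 0 and 2960 below). Hspa1b had 2448 and 1399 CPM in the high_fibre libraries and 1453 and 915 CPM in the control_diet libraries, and Hspa1a had 2099 and 1271 CPM against 1357 and 890.1 CPM. High_fibre 1 was the highest library for both genes, and the groups overlapped. Over the list the groups did not overlap for 12 of 18 genes, against 31.4% of all genes, as for Hsph1, named after its values were seen, with 188 and 79.9 CPM in the high_fibre libraries and 74.3 and 50.5 CPM in the control_diet libraries. Of 15 tested ER stress chaperones 13 were above 0 (median 0.22). Of 13 MHC class I genes 11 were below 0 (median -0.17), as were 9 of 13 class II genes (median -0.37), where high_fibre 1 was low, with H2-Aa at 1248 and 2798 CPM in the high_fibre libraries and 2846 and 3870 CPM in the control_diet libraries. Of 8 tested genes on the short-chain fatty acid list 6 were above 0 (median 0.12). Gpr132 had 70.3 and 50.6 CPM in the high_fibre libraries and 40.8 and 75.8 CPM in the control_diet libraries. None of the genes in these lists was called.

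**Figure D5:**
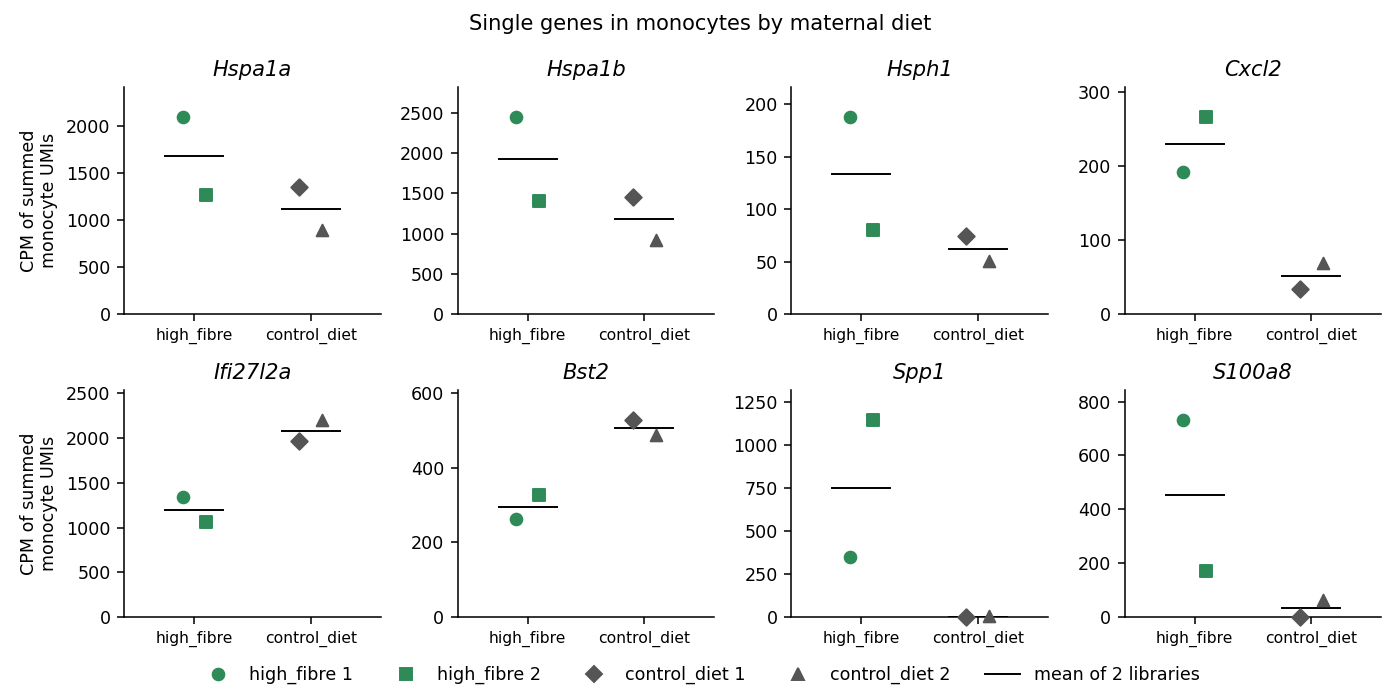
CPM of 8 genes in the summed monocytes of each library, high_fibre left of control_diet, with a bar at the mean of 2 libraries. Both high_fibre values of Ifi27l2a and Bst2 are below both control_diet values and those of Cxcl2 above, Hspa1a and Hspa1b overlap between the groups, and none of the 8 was called by edgeR in the test without a replicate block.

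The diet effect in monocytes was set against that in macrophages by a test of the difference within each library. limma called 0 of 9737 genes (0%), with 408 at an unadjusted p under 0.05, and an interaction term in edgeR called 1. That gene was Cd63 (log2 difference 2.22 ± 0.34, edgeR adjusted p = 0.0433), named after its value was seen. Its monocyte sums were 65 and 97 UMIs for high_fibre and 12 and 3 UMIs for control_diet, and 1 cell held 64.6% and 58.8% of those in high_fibre 1 and 2.

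Genes that mark sex and blood were read in every comparison, because the labels give no sex and blood may be carried over. Xist, transcribed from the inactive X chromosome, had 224 and 417 CPM in the high_fibre monocytes and 417 and 145 CPM in the control_diet monocytes. The Y-linked Ddx3y had 64.6 and 59.9 CPM in the high_fibre monocytes and 24 and 56.8 CPM in the control_diet monocytes, so UMIs of both were found in the monocytes of every library. Haemoglobin Hba-a1 was low, at 21.5 and 10.7 CPM in the high_fibre monocytes and 2.40 and 0 CPM in the control_diet monocytes.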

How the data were processed

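The authors deposited whole-number UMI counts per gene and barcode for each of 4 libraries, made with the 10x 3′ v2 chemistry per the labels' protocols. Cell Ranger 3.1.0 and the build mm10 are named in the submitters' processing notes. The barcode with the fewest UMIs held 500. The deposited counts hold 26765 barcodes and 31053 genes, and no cell annotation was used.

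Monocytes, macrophages and the 2 gates were taken from the counts by the stated thresholds. The members, gene lists, tests and naming rule were chosen with earlier results of these data known. Doublets were scored in each library against 2 simulated doublets per cell over 30 neighbours, and were kept in the main results. Removing the highest scored 0.8% per 1000 barcodes was an alternative.

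Counts were summed per library and cell set, so that the library is the replicate. Genes that passed filterByExpr (minimum count 10) entered edgeR 4.0.16 (robust quasi-likelihood, TMM, R 4.3.3) and adjusted by Benjamini-Hochberg over all tested genes at 0.05. The library was a block for gates and macrophages, and no block entered the diet test. The difference of diet effects used limma 3.58.1 with a prior count of 2. The 15 rule genes stayed in library sizes but were not tested. CPM values are counts per 1000000 UMIs of the set. Fold changes are log2, with SE. Binomial intervals and the floor of 3 UMIs for a count of 0 cover counting error only. DESeq2 1.42.0 and limma-voom, RLE size factors, no or a lower count filter, stricter and looser cell rules, thinning to 1000 UMIs and leaving out each library were alternatives. The tests were tried on simulated data.

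Among called genes with at least 20 CPM in the higher set and 1 sign in every library, the text names the 12 largest rises and 12 largest falls, without ribosomal, mitochondrial and predicted genes. In the diet test, where none was called, it names up to 6 a direction by smallest unadjusted p with groups apart. Some genes that meet these rules are not reported here. List members, Xist, Ddx3y, Hba-a1 and Ly6c1 were read beside these. Shared transcript ends were counted in 90-base windows over the last 500 bases. Promoter sequences are from RefSeq, build GRCm38.p6, at the first listed start of each gene. Python 3.11.15, numpy 2.4.6, scipy 1.17.1 and scikit-learn 1.9.0 did the rest, and matplotlib 3.10.9 drew the figures.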

Additional observations from a re-analysis of the deposited data

How the results depend on the processing

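The count of genes called between the gates (292) was 190 without cells holding markers of another class, 490 without barcodes found in several libraries, 160 with DESeq2, 556 with no low-count filter, 128 with gates set after thinning to 1000 UMIs, and 123 to 453 with each library left out in turn. Of the 86 named or listed genes called there, 40 kept their call in every alternative that tested them, 46 lost it in at least 1 and none changed sign. Against macrophages 211 of 286 kept it in every alternative, 71 lost it in at least 1, and 8, of which 4 are also among the 71, changed sign without cells holding markers of another class: Cd209a to a log2 fold of -0.47, Cx3cr1 to 0.0091, H2-Ob to -1.27, Igkc to -0.33, Irf8 to -0.013, Pecam1 to -0.16, S100a8 to -2.10 and Zbtb46 to -7.90. Those cells were left out partly on such markers, so Cd209a, Igkc, Pecam1, S100a8 and Zbtb46 fall by construction.

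In the diet test the count was 1 with DESeq2 (Spp1), 31 with no low-count filter, 1 with Ly6c2-high cells alone (Fabp4), and 13 to 89 with each library left out. With the repeat number as a replicate block, edgeR called 5 genes, named after their values were seen: Spp1, Car8, Cxcl2, Ctla2a and Cd81. All 77 UMIs of Ctla2a in control_diet 2 came from 1 cell. The repeat numbers share only a number, since no label says what they pair, and the deviations of same-numbered libraries correlated at 0.150 in both pairs, which 2 against 2 libraries make equal. The block called 0 genes in the comparison of diet effects, where an edgeR interaction term called 1.

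The log2 ratio of the monocyte share (0.76) missed the threshold at 0.70 with a minimum of 500 UMIs, 0.62 with at most 10% mitochondrial UMIs, 0.65 with a marker sum of at least 8, 0.72 with at most 2 C1q UMIs, 0.76 without scored doublets, 0.79 without cells holding markers of another class, 0.78 without barcodes found in several libraries, 0.62 with the rule applied after thinning and 0.35 as a share of monocytes and macrophages. With each library left out it was 0.61 to 1.02. Apart from the genes that fall by construction, the cause was not tested. The 15 monocytes and 158410 UMIs of control_diet 2 limit every diet value.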

Other observations

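The 12 monocytes that carried both at least 3 UMIs of Ly6c2 and at least 1 of Treml4 entered neither gate. They were as deep as the Ly6c2-high cells, with a median of 11456 UMIs against 11024.5, and 4 of the 12 held markers of another class. F13a1 had a UMI in 10 of the 12, Capg in 10, Bst2 in 11 and Ccr2 in 9. Among genes lower in Ly6c2-high cells, Cd300e had a UMI in 1 of the 12, Fcgr4 in 2 and Pglyrp1 in 6. Ifitm6 was detected in all 12, at 887 CPM over the summed cells, against 555 CPM in Ly6c2-high cells, 567 CPM in Treml4-positive cells and 213 CPM in the 46 cells that reached neither marker threshold. Plac8 was detected in all 12 with a median of 63 UMIs per cell, against 31.5 in Ly6c2-high and 6 in Treml4-positive cells. These are values of few cells, 5, 1, 5 and 1 in the libraries high_fibre 1, high_fibre 2, control_diet 1 and control_diet 2, and no test was made on them.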
